A study of Mus musculus with 6 samples.

Results

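The genes described here are 34 mouse genes of sterol and fatty acid synthesis, taken by symbol from a fixed list, out of 17193 genes listed in the expression tables. All 34 had a row, and all 34 passed the filter on low values (a mean of at least 1 FPKM over the 6 libraries). They were read in 3 groups, namely 18 enzymes of the mevalonate and sterol pathway, 6 regulators, and 10 enzymes that make, elongate or desaturate fatty acids. The regulators were *Srebf1* and *Srebf2*, which encode the SREBP factors, with *Scap*, *Insig1*, *Insig2* and the sterol transfer gene *Stard4*. The study asked how stimulation of the dopamine D2 receptor changes gene expression in astrocytes of the mouse brain. Astrocytes were collected with anti-ACSA-2 microbeads from brains of wild-type C57BL/6 mice aged 3 months that had been given either a mock treatment or quinpirole, an agonist of the D2 receptor, with 3 libraries per group. The study's table names the mock group saline. The sample labels give neither the dose nor the duration of treatment, and they do not say whether each library came from a separate mouse, so the p-values below measure the spread between these libraries.

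Cells build cholesterol from acetyl-CoA through mevalonate, isoprenoid units, squalene and lanosterol, and they build long fatty acids from the same acetyl-CoA through malonyl-CoA. Both branches are transcribed under the control of the SREBP factors, which are held in the endoplasmic reticulum by SCAP and the INSIG proteins and are released when sterols run low. *Srebf2* encodes the SREBP known mainly for the sterol branch, and *Srebf1* encodes the forms known mainly for the fatty acid branch. In the adult brain, astrocytes are a main source of cholesterol, which they pass to neurons in lipoproteins.

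Expression was read as FPKM, the number of fragments counted on a gene scaled to its transcript length and to the depth of the library, and compared on the scale of log2(FPKM + 1) with limma across 12255 genes, with Benjamini-Hochberg adjustment over all of them and a threshold of 0.05. Depth was not recorded, and the steps between the lowest values gave an estimate of 22300000 to 27500000 fragments per library. At that depth every member rested on at least 509 estimated fragments in every library, and counting error alone came to at most 4.43% of a value. Fold changes of all genes were related to exonic length (Spearman's rho -0.475 across 12223 genes, which are not independent replicates), with a median log2 fold change of 0.12 in the shortest 20% of genes and -0.11 in the longest 20%. The counts for the 34 genes and the genes called among them are therefore also given after a correction of every library for length. Summed FPKM of 10 astrocyte markers was 1217 to 1325 in the mock libraries and 1173 to 1211 in the quinpirole libraries. *Gfap* and *Aldh1l1* were among the highest, whereas the glutamate transporter gene *Slc1a2* lay between 5.15 and 8.55 FPKM. After quinpirole 2 of the 10 markers, *Slc1a2* and *Atp1b2*, fell, beside 5.18% of all genes called lower. The median log2 fold change of the 10 astrocyte markers was -0.11. An unadjusted p under 0.05 in limma was found for 5 of them, all lower, beside 14% of all genes lower at this cutoff. Corrected for length, the median was -0.07 and *Slc1a2* was no longer called (limma adjusted p = 0.0573). The part of this shift in the changes of the fatty acid enzymes was not tested. Summed FPKM of 8 microglia markers was 530.1 to 567 in the mock group and 552 to 616 in the quinpirole group, so RNA of microglia was present in every library.

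Of the 18 sterol enzymes, 3 rose after quinpirole (*Idi1*, *Fdps* and *Msmo1*) and 0 fell. Of the 10 fatty acid enzymes, 3 fell (*Fasn*, *Scd1* and *Scd2*) and 0 rose, and of the 6 regulators, *Srebf1* fell and 0 rose. Among all 12255 genes tested, 10.9% were called, with 5.74% of the tested genes higher (704 genes) and 5.18% lower (635 genes), a split that was 283 and 500.0 under quantile normalization. The median log2 fold change was 0.11 for the sterol enzymes, -0.11 for the fatty acid enzymes, -0.03 for the regulators and 0.02 for all genes tested. After the length correction 1 sterol enzyme was called higher (*Msmo1*) and the same 4 genes of the other groups were called lower, beside 2.09% and 2.07% of all genes (4.16% in either direction). After length and GC content together, *Msmo1* was called higher and *Fasn*, *Scd1* and *Scd2* lower, beside 1.53% and 1.54% of all genes (3.07% in either direction). At an unadjusted p under 0.05 in limma, 9 sterol enzymes were higher and 4 fatty acid enzymes lower, beside 17.3% and 14% of all genes. In a bulk preparation, fewer cells of a type and less RNA per cell cannot be told apart.

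**Figure D1:**
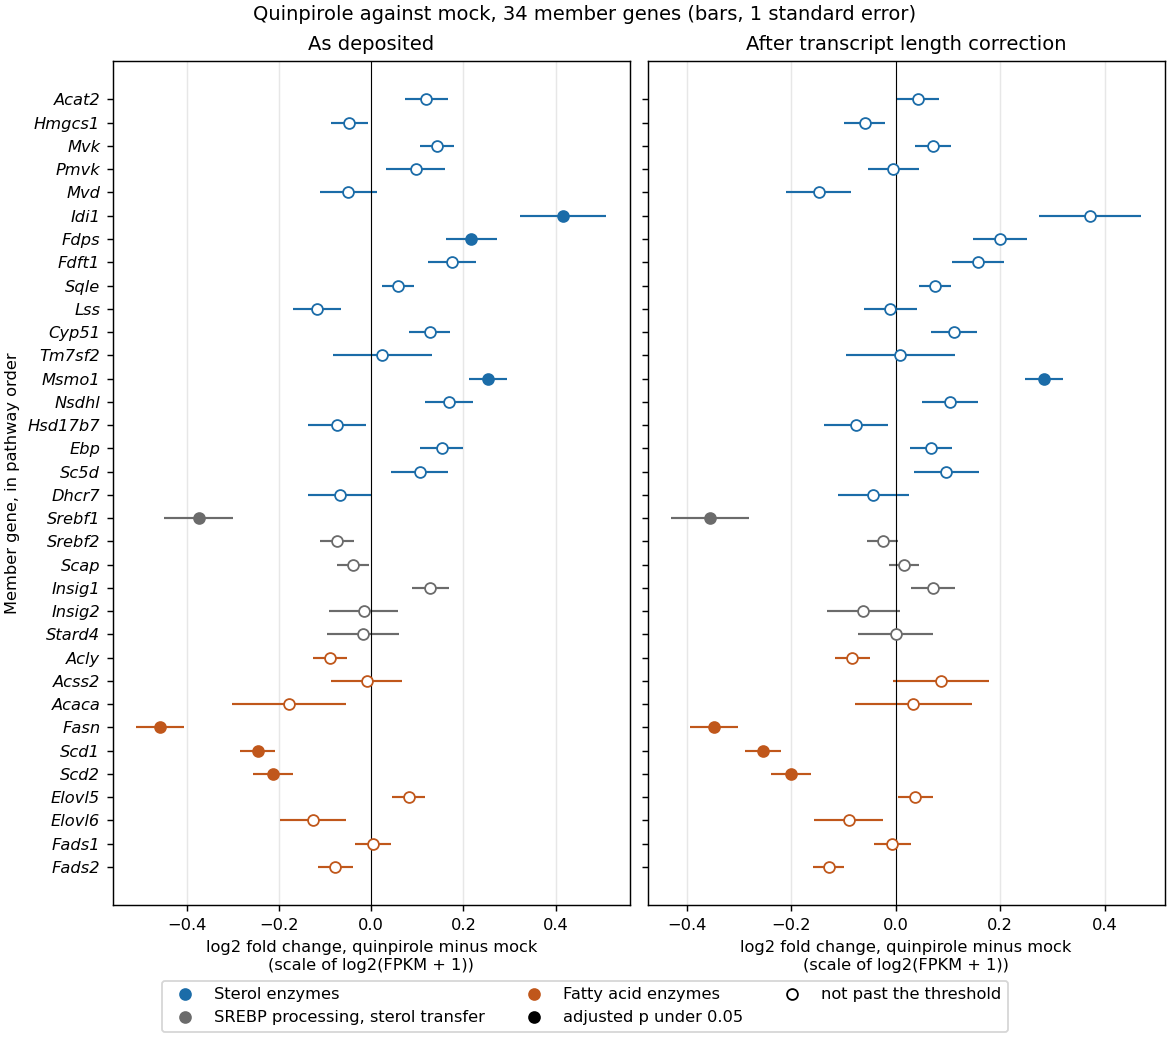
Log2 fold change of each of the 34 genes, quinpirole minus mock, on the scale of log2(FPKM + 1), as deposited (left) and after the correction for exonic length (right, headed transcript length). Points are the fitted changes, bars are 1 standard error, and filled points are past an adjusted p of 0.05 (limma). On the left, filled sterol enzymes lie between 0.22 and 0.42 and filled fatty acid enzymes between -0.46 and -0.21.

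The early enzymes of the mevalonate pathway did not pass the threshold, although in *Acat2* and *Mvk* every quinpirole library lay above every mock library. *Acat2*, which joins acetyl-CoA units, had 15.8 ± 0.567 FPKM (SD, n = 3 libraries) after mock and 17.2 ± 0.489 FPKM after quinpirole (limma adjusted p = 0.133). Of its longest transcript, 45.9% also occurs in *Acat3*, so its reads may be split between them. *Hmgcs1*, which forms HMG-CoA, had 68.0, 69.7 and 65.8 FPKM in mock libraries 1 to 3 and 68.1, 63.6 and 65.3 FPKM in quinpirole libraries 1 to 3. The groups overlapped, and the log2 fold change was -0.05 (SE, the standard error, 0.04, limma adjusted p = 0.466). Of the 3 enzymes that turn mevalonate into the first isoprenoid unit, *Mvk* came nearest to the threshold, with 28.3 ± 0.705 and 31.3 ± 0.308 FPKM (log2 fold change 0.14, limma adjusted p = 0.0522). After the length correction the adjusted p of *Mvk* was 0.245, and with a minimum of 5 FPKM *Mvk* was called higher. *Pmvk* and *Mvd* overlapped between the groups, at 24.0 to 28.9 FPKM and at 11.8 to 13.8 FPKM.

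*Idi1* (chromosome 13, 8885501 to 8892451, plus strand, GRCm38) encodes the isomerase that makes the reactive isoprenoid unit, and it had the largest fold change among the sterol enzymes. It had 10.02, 9.55 and 9.77 FPKM in mock libraries 1 to 3, and 13.3, 11.6 and 15.5 FPKM in quinpirole libraries 1 to 3. Every quinpirole library lay above every mock library, but the quinpirole libraries also differed widely among themselves (13.5 ± 1.94 FPKM, against 9.78 ± 0.237 FPKM after mock). The log2 fold change was 0.42 (SE 0.09, limma adjusted p = 0.0382), which is 1.38 times on the FPKM scale. The change kept its size after the length correction (0.37) but not its call (adjusted p = 0.073). Of the longest transcript, 21.3% also occurs in transcripts of other genes, among them *Gm13502*, and 9.21% of the exonic bases lie opposite *Gm48574* in a library kit not stated to keep strand. How much these genes contribute to the value was not tested.

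*Fdps* (chromosome 3, 89093588 to 89101959, minus strand), the synthase of farnesyl diphosphate, stood at 46.5, 48.0 and 51.8 FPKM after mock and at 57.7, 59.3 and 53.5 FPKM after quinpirole. The groups did not overlap, although quinpirole library 3 was close to mock library 3. The log2 fold change was 0.22 (SE 0.06, limma adjusted p = 0.0495), at the edge of the threshold, and 0.20 after the length correction (adjusted p = 0.0721). Exons of *Gm43738* on the same strand cover 26.7% of its exonic bases. *Fdft1*, squalene synthase, the next enzyme, had 25.8 ± 0.492 and 29.3 ± 1.83 FPKM, a change of 0.18 on the log2 scale (limma adjusted p = 0.0689). Of the exonic bases of *Fdft1*, 18.3% lie opposite *Ctsb*, and 10.85% of its longest transcript also occurs in *Gm6781*. *Sqle*, squalene epoxidase, was the most abundant of the sterol enzymes at 90.9 ± 2.08 and 94.7 ± 1.62 FPKM, and its groups overlapped. *Lss*, which closes the ring to lanosterol, was the single sterol enzyme with every quinpirole library below every mock library (8.86 ± 0.345 and 8.08 ± 0.156 FPKM, limma adjusted p = 0.165). Its annotated exonic length of 10787 nucleotides was the longest of the sterol enzymes, and after the length correction its log2 fold change went from -0.12 to -0.01.

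*Msmo1* (chromosome 8, 64718139 to 64733792, minus strand) encodes the oxidase that removes the methyl groups at carbon 4 of the sterol ring. It had 37.7, 40.3 and 37.4 FPKM in the mock libraries and 45.7, 46.0 and 46.3 FPKM in the quinpirole libraries. The quinpirole values lay close together and well above the highest mock value. The log2 fold change was 0.25 (SE 0.04, limma adjusted p = 0.0246), and 0.28 after the length correction (adjusted p = 0.0304), so *Msmo1* was the sterol enzyme whose call held under it. That correction used all 6144 annotated exonic nucleotides of *Msmo1*, whereas its longest transcript has 2969. A correction by the length of single transcripts was not run. Of the longest *Msmo1* transcript, 1.54% occurs in transcripts of other genes. *Nsdhl* acts with *Msmo1* in the same demethylation and had 11.4 ± 0.243 and 13.0 ± 0.656 FPKM (limma adjusted p = 0.0742). *Hsd17b7*, the last enzyme of that step, had 8.59 ± 0.379 and 8.11 ± 0.536 FPKM, and its groups overlapped.

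Around and after the demethylation, *Cyp51*, the lanosterol demethylase, had 24.1 ± 0.817 and 26.4 ± 0.784 FPKM, and *Ebp*, the sterol isomerase, had 15.8 ± 0.573 and 17.7 ± 0.504 FPKM. In both genes every quinpirole library lay above every mock library, with adjusted p-values of 0.1004 and 0.0733 from limma. Corrected for length, the adjusted p-values of *Fdft1*, *Nsdhl*, *Cyp51* and *Ebp* lay between 0.111 and 0.329 (limma). *Sc5d*, the lathosterol desaturase, ranged from 26.7 to 27.2 FPKM after mock and from 27.5 to 32.2 FPKM after quinpirole, where library 1 alone was high. *Tm7sf2*, a sterol reductase, ranged from 8.12 to 10.9 FPKM over all libraries, and *Dhcr7*, the last reductase on the way to cholesterol, from 7.89 to 9.52 FPKM, both with overlapping groups. In total, 10 of the 18 sterol enzymes had every quinpirole library above every mock library and 1 had the reverse, whereas 20% and 16.9% of all tested genes were apart in these directions (36.9% in either). The numbers were 9 and 1 after the length correction, beside 16.7% and 15.7% of all genes (32.4% in either direction).

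**Figure D2:**
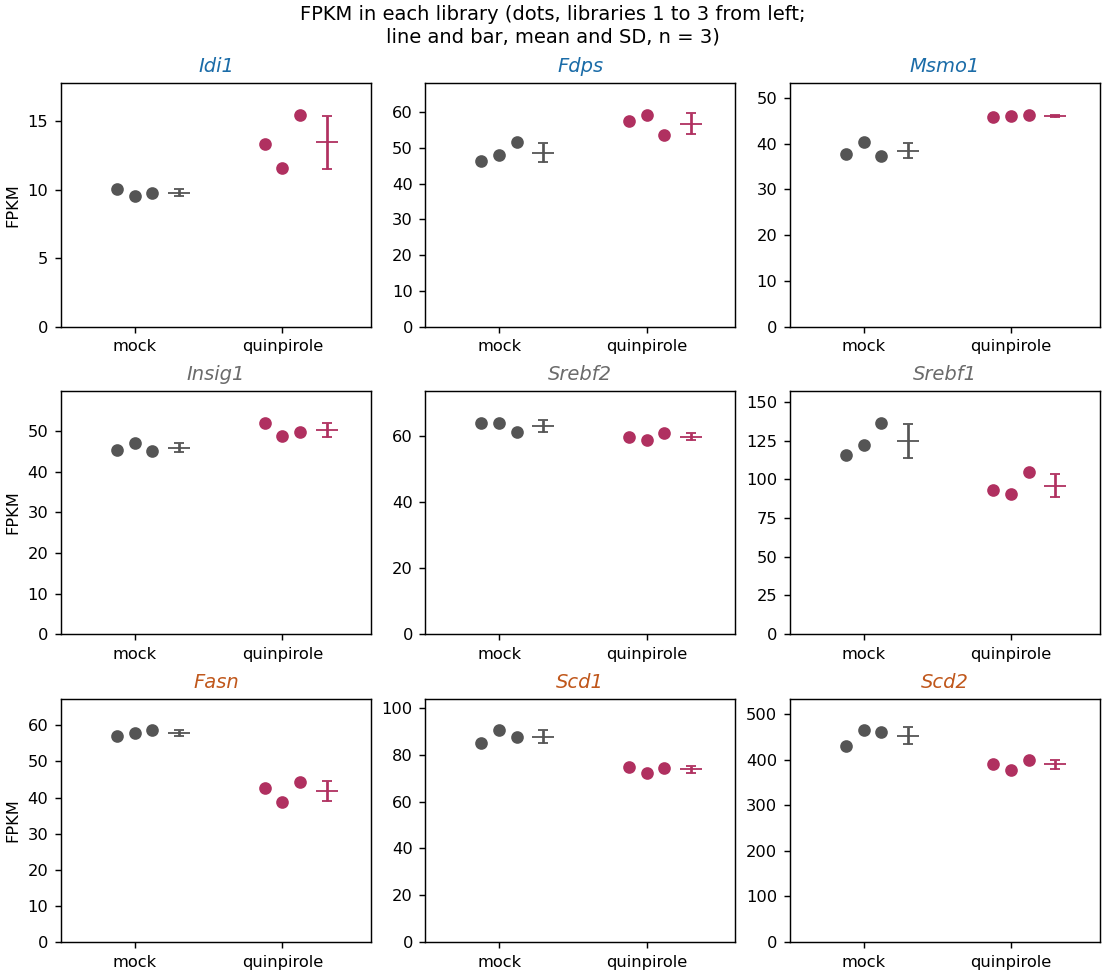
FPKM of 9 genes in each library, with mock in grey and quinpirole in red, dots for libraries 1 to 3 from left to right, and the mean with its SD (n = 3) beside them; every axis starts at 0. Sterol enzymes are in the upper row, regulators in the middle and fatty acid enzymes in the lower row. *Fasn* went from 56.9 to 58.6 FPKM after mock down to 38.9 to 44.2 FPKM after quinpirole.

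*Srebf1* (chromosome 11, 60199089 to 60222581, minus strand), which encodes the SREBP-1 factors, fell. Its mock libraries stood at 116, 122 and 137 FPKM and its quinpirole libraries at 92.9, 90.6 and 104 FPKM. The groups did not overlap, although both were widely spread (125 ± 10.7 and 96.0 ± 7.44 FPKM). The log2 fold change was -0.37 (SE 0.08, limma adjusted p = 0.0303). After the length correction it was -0.36 (adjusted p = 0.0482), and after corrections for length and GC content together -0.30 (adjusted p = 0.0717). The tables give 1 value per gene, so the transcripts known as SREBP-1a and SREBP-1c cannot be told apart. *Srebf2* (chromosome 15, 82147181 to 82205379) had 63.9, 64.0 and 61.1 FPKM after mock and 59.6, 58.8 and 60.9 FPKM after quinpirole. These groups were narrowly apart. The log2 fold change came to -0.07 (SE 0.04, limma adjusted p = 0.208), and it was -0.02 after the length correction and 0.03 after both corrections. The ratio of *Srebf1* to *Srebf2* FPKM within a library was 1.81, 1.90 and 2.24 after mock and 1.56, 1.54 and 1.71 after quinpirole, so within a library the levels of these genes changed unequally.

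Of the proteins that hold SREBP in the endoplasmic reticulum, *Scap* was nearly level at 64.1 ± 1.28 and 62.4 ± 0.979 FPKM. *Insig1*, itself a known target of SREBP, had 45.3, 47.2 and 45.2 FPKM after mock and 52.1, 48.9 and 49.8 FPKM after quinpirole. Every quinpirole library lay above every mock library, by 0.13 on the log2 scale (SE 0.04, limma adjusted p = 0.078, or 0.319 after the length correction). *Insig2* overlapped between the groups (15.6 ± 0.900 and 15.4 ± 1.42 FPKM). *Stard4*, a sterol transfer protein, was among the lowest of the 34 genes, at 5.45 ± 0.31 and 5.38 ± 0.523 FPKM. The adjusted p-values of *Scap*, *Insig2* and *Stard4* lay between 0.477 and 0.899 (limma).

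Among the fatty acid enzymes, the suppliers of acetyl-CoA and malonyl-CoA did not pass the threshold. *Acly*, which cleaves citrate to acetyl-CoA, had 57.6, 60.4 and 57.9 FPKM after mock and 55.7, 53.7 and 55.8 FPKM after quinpirole, so that every quinpirole library lay below every mock library (log2 fold change -0.09, limma adjusted p = 0.151). *Acss2*, which activates acetate, overlapped at 10.7 to 12.8 FPKM. *Acaca*, acetyl-CoA carboxylase, ranged from 11.3 to 13.9 FPKM after mock and from 9.51 to 12.8 FPKM after quinpirole. Its log2 fold change was -0.18 (SE 0.12, limma adjusted p = 0.363), or 0.03 after the length correction. It was the longest of the 34 genes (17074 exonic nucleotides), and 52.6% of its longest transcript also occurs in *Gm5182*, so its value is uncertain.

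*Fasn* (chromosome 11, 120805846 to 120824547, minus strand), the fatty acid synthase, had the largest decrease of the 34 genes as deposited, and *Srebf1* had it after the length correction (-0.36 against -0.35). It stood at 56.9, 57.9 and 58.6 FPKM in the mock libraries and at 42.6, 38.9 and 44.2 FPKM in the quinpirole libraries. All quinpirole values were far below the tightly grouped mock values. The log2 fold change was -0.46 (SE 0.05, limma adjusted p = 0.0215), which is 0.724 times on the FPKM scale. With 10947 exonic nucleotides *Fasn* belongs to the longest 20% of genes, and the length correction left -0.35 (adjusted p = 0.0304), while length and GC content together left -0.29 (adjusted p = 0.0388). None of its longest transcript (0%) occurs in transcripts of other genes.

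The stearoyl-CoA desaturases, which place the first double bond in saturated fatty acids, fell in parallel. *Scd1* (chromosome 19, 44394455 to 44407879, minus strand) had 85.0, 90.5 and 87.5 FPKM after mock and 74.8, 72.1 and 74.3 FPKM after quinpirole. *Scd2* (chromosome 19, 44293674 to 44306864, plus strand), the most abundant of the 34 genes, had 432, 465 and 462 FPKM after mock and 392, 379 and 399.9 FPKM after quinpirole. Neither gene overlapped between the groups. The log2 fold changes were -0.25 (SE 0.04, limma adjusted p = 0.0228) for *Scd1* and -0.21 (SE 0.04, limma adjusted p = 0.0308) for *Scd2*. After the length correction they were -0.25 and -0.20 (adjusted p = 0.0308 and 0.0419 from limma). The paralogs share 4.66% of the longest *Scd1* transcript and 4.01% of the longest *Scd2* transcript with each other and with *Scd3* and *Scd4*, which lay between 0.632 and 1.33 FPKM. The ratio of *Scd1* to *Scd2* FPKM stayed between 0.186 and 0.197 in all 6 libraries.

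The enzymes that lengthen and further desaturate fatty acids were not called. *Elovl5*, an elongase of polyunsaturated fatty acids, had 75.1 ± 1.79 and 79.5 ± 1.67 FPKM and was the single fatty acid enzyme with every quinpirole library above every mock library (log2 fold change 0.08, limma adjusted p = 0.169). *Elovl6*, the elongase of palmitate, was the lowest of the 34 genes at 4.35 ± 0.296 and 3.90 ± 0.266 FPKM. *Fads1*, the delta-5 desaturase, was level at 70.4 ± 2.03 and 70.6 ± 1.85 FPKM. *Fads2*, the delta-6 desaturase, came second in level to *Scd2*, at 293 ± 9.23 and 277 ± 5.88 FPKM (limma adjusted p = 0.207), and was called lower under quantile normalization. Corrected for length, the log2 fold change of *Fads2* was -0.13 (limma adjusted p = 0.0573). Of the 10 fatty acid enzymes, 4 had every quinpirole library below every mock library and 1 above, beside 16.9% and 20% of all genes. The numbers were 5 and 0 after the length correction, beside 15.7% and 16.7%.

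**Figure D3:**
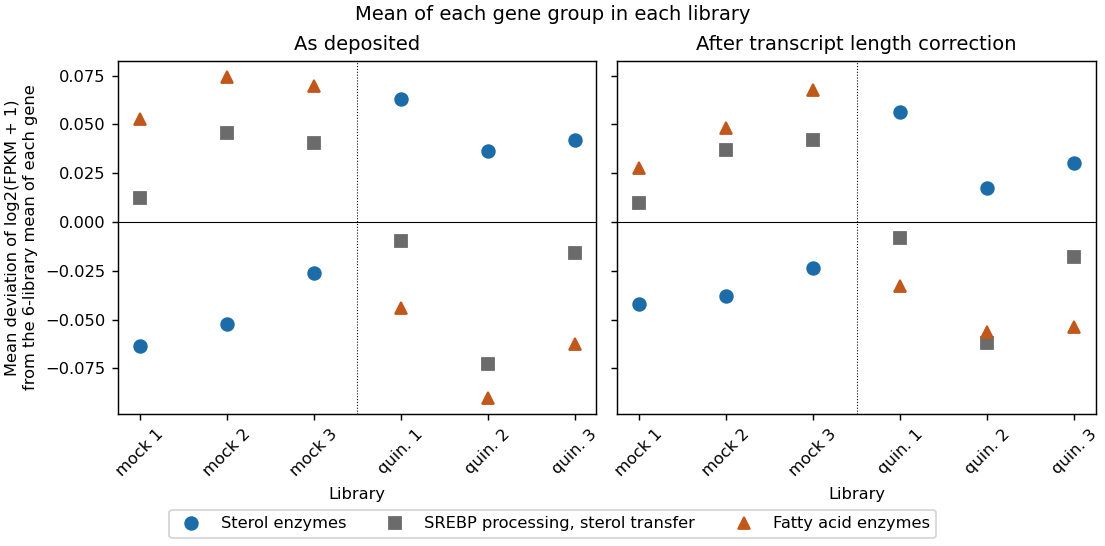
Mean over each gene group, in each library, of the deviation of log2(FPKM + 1) from the 6-library mean of each gene, as deposited (left) and after the correction for exonic length (right, headed transcript length). Sterol enzymes lie below 0 in the 3 mock libraries and above 0 in the 3 quinpirole libraries, and fatty acid enzymes lie the other way round, on both sides of the plot.

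The arms were compared within each library, which largely removes any factor that scales a whole library on this log scale. The mean deviation of the sterol enzymes minus that of the fatty acid enzymes was -0.12, -0.13 and -0.10 in the mock libraries, and 0.11, 0.13 and 0.10 after quinpirole. Quinpirole libraries were on average higher by 0.23 on the log2 scale, against SDs of 0.02 after mock and 0.01 after quinpirole. After the length correction it was 0.16, with -0.07, -0.09 and -0.09 after mock and 0.09, 0.07 and 0.08 after quinpirole. The groups were apart on both scales, and no p is given because the genes were listed with earlier results of these libraries known. For single genes, the ratio of *Msmo1* to *Fasn* FPKM was 0.662, 0.696 and 0.637 in the mock libraries and 1.07, 1.18 and 1.05 in the quinpirole libraries. *Msmo1* was thus below *Fasn* per unit length in every mock library and above it in every quinpirole library.

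**Figure D4:**
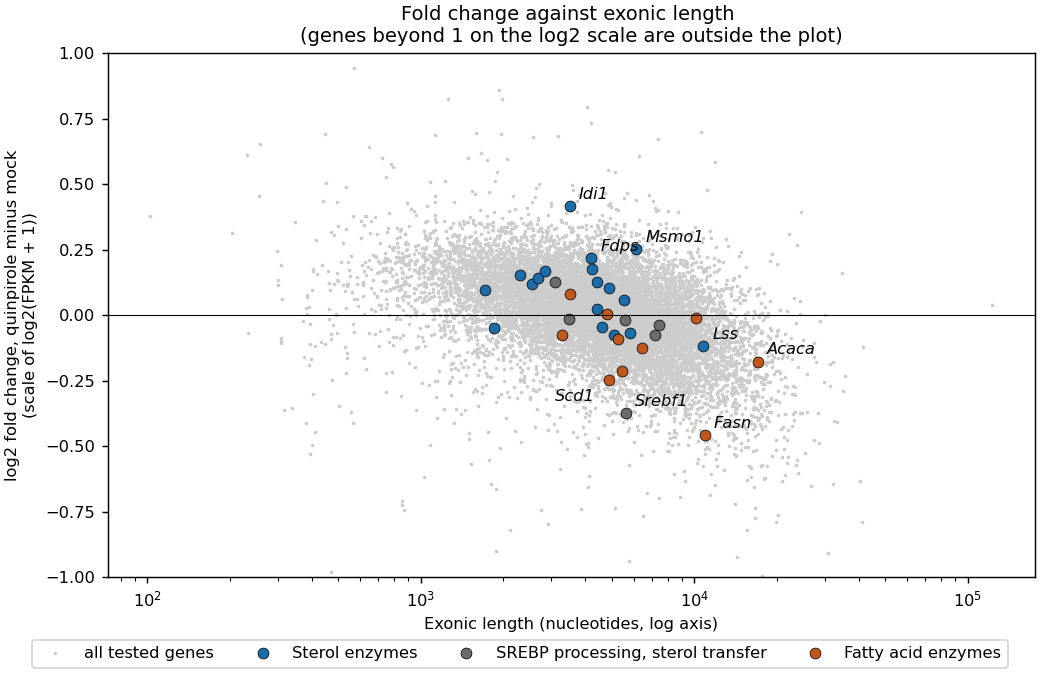
Log2 fold change (quinpirole minus mock, on the scale of log2(FPKM + 1)) against exonic length on a log axis, for all tested genes with a length (grey) and the 34 genes (coloured). The cloud of all genes falls with length (rho -0.475); *Idi1*, *Fdps* and *Msmo1* lie toward its upper edge at their lengths, and *Srebf1*, *Scd1* and *Fasn* toward its lower edge.

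The sterol enzymes were shorter than the fatty acid enzymes, with a median exonic length of 4315 against 5372 nucleotides, beside 4521 for all tested genes. GC content of the longest transcripts was similar (medians of 49.2% and 49.3%). The difference between the median log2 fold changes of the arms was 0.22 as deposited, 0.16 after the length correction, 0.23 after the GC content correction and 0.15 after both corrections.

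Promoter sequences from RefSeq (GRCm38.p6, 250 bases before to 50 bases after a gene's start) were listed for 27 of the 34 genes. They were searched on both strands for TCACNCCA, a form of the sterol regulatory element that SREBP binds, and for CCAAT, the box bound by NF-Y, which is known to act with SREBP. The first was found in 3 of the 27 genes, *Hmgcs1*, *Msmo1* and *Srebf2*, beside 4.97% of all genes in the table, and its longer form TCACNCCAC in *Hmgcs1* alone (1.44% of all genes). CCAAT was found in 22 of the 27 genes, beside 41.1% of all genes, in 14 of 15 sterol enzymes, 4 of 5 regulators and 4 of 7 fatty acid enzymes. The promoters below are those of *Hmgcs1*, which holds the long form, and of the called genes in the table, with matches to either motif in capitals; ATTGG is CCAAT on the other strand. *Srebf1* has 3 promoters in the table, and the one of the most upstream start is shown. The last bases of the *Hmgcs1* window were not found in an annotated GENCODE transcript, unlike those of the others.
Hmgcs1, chr13:119690101-119690400, plus strand: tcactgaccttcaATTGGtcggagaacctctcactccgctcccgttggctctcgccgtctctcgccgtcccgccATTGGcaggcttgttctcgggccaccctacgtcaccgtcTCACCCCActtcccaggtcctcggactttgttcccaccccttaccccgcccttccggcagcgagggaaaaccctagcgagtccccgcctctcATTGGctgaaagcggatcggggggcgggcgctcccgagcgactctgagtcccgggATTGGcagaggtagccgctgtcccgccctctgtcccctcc
Idi1, chr13:8885356-8885655, plus strand: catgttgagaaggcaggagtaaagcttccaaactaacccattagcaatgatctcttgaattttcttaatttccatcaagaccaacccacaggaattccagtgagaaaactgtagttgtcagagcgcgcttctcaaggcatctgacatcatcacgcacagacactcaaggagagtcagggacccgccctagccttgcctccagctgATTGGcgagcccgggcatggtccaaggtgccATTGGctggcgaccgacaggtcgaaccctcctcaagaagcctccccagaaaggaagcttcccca
Msmo1, chr8:64733529-64733828, minus strand: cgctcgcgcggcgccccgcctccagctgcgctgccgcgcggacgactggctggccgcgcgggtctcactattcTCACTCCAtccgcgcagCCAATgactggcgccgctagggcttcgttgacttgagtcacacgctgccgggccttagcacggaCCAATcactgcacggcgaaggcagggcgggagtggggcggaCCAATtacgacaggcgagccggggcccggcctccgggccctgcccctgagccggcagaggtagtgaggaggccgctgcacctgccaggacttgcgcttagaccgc
Srebf1, chr11:60222532-60222831, minus strand: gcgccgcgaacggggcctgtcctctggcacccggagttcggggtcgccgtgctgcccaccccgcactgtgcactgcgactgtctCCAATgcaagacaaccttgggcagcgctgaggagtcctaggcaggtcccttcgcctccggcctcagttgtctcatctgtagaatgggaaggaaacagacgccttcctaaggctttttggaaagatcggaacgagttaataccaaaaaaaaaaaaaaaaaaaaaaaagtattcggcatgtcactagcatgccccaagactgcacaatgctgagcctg
Fasn, chr11:120824498-120824797, minus strand: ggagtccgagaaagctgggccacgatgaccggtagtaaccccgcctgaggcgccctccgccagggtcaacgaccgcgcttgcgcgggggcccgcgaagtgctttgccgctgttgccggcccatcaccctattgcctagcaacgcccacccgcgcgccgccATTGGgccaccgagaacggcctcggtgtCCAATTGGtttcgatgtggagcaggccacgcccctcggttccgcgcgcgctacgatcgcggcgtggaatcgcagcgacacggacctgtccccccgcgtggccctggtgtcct
*Msmo1* holds TCACTCCA 177 bases before its start and CCAAT at 160, 96 and 55 bases before it. *Idi1* holds ATTGG at 45 and 14 bases before its start, and *Fasn* holds matches at 90, 62 and 59 bases before it, of which those at 62 and 59 overlap on opposite strands. *Hmgcs1*, which did not pass the test, holds more matches than any called gene shown. A match in these letters is a description and not a measured binding site.

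The further genes of these pathways were read from lists of other sterol and isoprenoid genes and of other fatty acid genes. Of 24 other sterol and isoprenoid genes, 22 were tested and 0 passed the threshold in limma, with 3 at an unadjusted p under 0.05, all higher (*Acat1*, *Ggps1* and *Fntb*, named after their values were seen), beside 31.3% of all genes in either direction and 17.3% higher. Their median log2 fold change was 0.06. Of 36 other fatty acid genes, 28 were tested, 3 rose and 0 fell, with a median of 0.06, beside 5.74% of all genes higher and 5.18% lower. *Hsd17b12*, the ketoacyl-CoA reductase of the elongation cycle, had 70.2, 72.7 and 72.9 FPKM after mock and 82.1, 82.8 and 79.6 FPKM after quinpirole (log2 fold change 0.18, limma adjusted p = 0.0293). *Tecr*, the enoyl-CoA reductase of the same cycle, had 177 ± 8.21 and 200.7 ± 6.04 FPKM (log2 fold change 0.18, limma adjusted p = 0.0464). *Thrsp*, a gene of lipogenic tissues, had 7.95, 7.99 and 7.96 FPKM after mock and 9.46, 11.1 and 10.5 FPKM after quinpirole (log2 fold change 0.34, limma adjusted p = 0.0264). These 3 genes moved opposite to *Fasn* and the desaturases, and after the length correction none of the 3 was called (adjusted p from 0.0553 to 0.119). At an unadjusted p under 0.05 in limma, 9 of the 28 genes were found before the correction, beside 31.3% of all genes. After the correction, 8 were found (6 higher and 2 lower). The share of all genes at this cutoff was not computed after the correction, so nothing is read from that count. *Mid1ip1*, a relative of *Thrsp* named after its values were seen, stood at 148, 156 and 71.5 FPKM after mock and at 66.3 to 67.0 FPKM after quinpirole, and did not pass the threshold (limma adjusted p = 0.0844). Without mock library 3 it was called lower.

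Markers of other cell types were read in the same fit, in which 10.9% of all genes were called (5.74% higher and 5.18% lower). Of 8 neuron markers, 2 were tested and *Stmn2* rose (means of 54.5 and 63.8 FPKM, limma adjusted p = 0.0322). *Tubb3*, the other one tested, had means of 18.1 and 20.98 FPKM, with every quinpirole library above every mock library (log2 fold change 0.21, limma adjusted p = 0.0844), while *Snap25* and *Rbfox3* stayed under 0.1 FPKM. Of 7 endothelial and mural markers, 2 were tested and *Pdgfrb* fell (means of 26.2 and 21.2 FPKM, limma adjusted p = 0.0227). *Flt1*, the other one tested, had means of 1.31 and 1.04 FPKM, with every quinpirole library below every mock library. Its log2 fold change was -0.18 (limma adjusted p = 0.163), or -0.02 after the length correction. *Cdh5* had means of 0.718 and 0.54 FPKM, and *Pecam1* stayed under 0.1 FPKM. Of 12 oligodendrocyte markers, 4 were tested and 0 passed the threshold in limma (0 at an unadjusted p under 0.05), and *Mog* and *Ermn*, which define mature oligodendrocytes, stayed under 0.1 FPKM in every library. Of 5 markers of oligodendrocyte precursors, 1 was tested and not called, and summed FPKM was 2.57 to 3.27 after mock and 2.18 to 2.38 after quinpirole. Of 8 microglia markers and of the 4 tested of 5 ependymal markers 0 passed in limma. Summed FPKM of the ependymal markers was 144 to 161 after mock and 143 to 151 after quinpirole, with *Foxj1* at 118 to 130 FPKM over all libraries. At an unadjusted p under 0.05 in limma, 5 microglia markers (2 higher and 3 lower) and 1 ependymal marker (lower) were found. The share of all genes at this cutoff was 31.3% in either direction. Corrected for length, *Stmn2* and *Pdgfrb* were still called (limma adjusted p = 0.0454 and 0.0308). The ependymal marker *Dynlrb2* was then called lower (log2 fold change -0.51, limma adjusted p = 0.0409), beside 4.16% of all genes called in either direction. The part of other cell types in the changes of the 34 genes was not tested.

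The calls depended on single libraries. Without mock library 3, *Fdps*, *Msmo1*, *Srebf1*, *Fasn* and *Scd1* were still called, without quinpirole library 3 *Srebf1* and *Fasn*, and without quinpirole library 2 *Fasn* alone. Without mock library 2, 3 of all tested genes and 0 of the 34 passed the threshold in limma, and without mock library 1 or quinpirole library 1 also 0 of the 34, while the 7 called genes kept their sign and an unadjusted p of at most 0.02 in every such fit.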

How the data were processed

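Polyadenylated RNA of 3 mock and 3 quinpirole libraries was sequenced by the authors. The submitters' processing notes name TopHat2 and the build GRCm38, with no version of the aligner, and the annotation and counting tool are not given in the sources used here. The deposited values are FPKM per gene, 1 column per library, with no counts. Whole reads could not be recovered (60.8% to 71.1% of low values lay within 0.1 of a whole number), so no count test was run.

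The 6 libraries were joined by gene ID. Genes with a mean of at least 1 FPKM were fitted as log2(FPKM + 1) with limma 3.58.1 in R 4.3.3 (quinpirole minus mock, empirical Bayes with a trend, no covariate, two-sided, Benjamini-Hochberg adjustment). Fold changes on this scale understate those of low genes. Exonic lengths came from GENCODE on GRCm38. They count every base in any annotated exon of a gene, so they can exceed the length of each transcript. The length correction subtracted from each library a loess curve (span 0.3) of its deviations on log2 exonic length. Tables and plots were made with Python 3.11.15, and the fit was tested on simulated data. Shared sequence was measured as runs of 50 bases found in other genes. Alternatives were another pseudocount, other filters, scalings and variance model, a replicate block, corrections for length and GC content, and leaving out each library.

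The members and lists were chosen with earlier results of these data known. All 34 members were accounted for, with full values for those past the threshold and for *Srebf1*, *Srebf2*, *Insig1*, *Hmgcs1*, *Fasn* and *Scd2*, and of the other pathway lists for at most 5 genes past the threshold per list. Same-numbered libraries of the groups did not deviate together (correlations of 0.026, -0.0657 and -0.103), so the numbers were not used as pairs.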

Additional observations from a re-analysis of the deposited data

How the results depend on the processing

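The 7 called genes kept their sign under all 11 other settings and with each library left out. Of the other named genes, *Srebf2* alone changed sign, to 0.0298 after the length and GC content corrections. Over all genes, 1339 calls became 633 with no filter, 783 under quantile normalization (283 higher), 714 without the variance trend, 509 after the length correction and 375 after length and GC content. The corrections that use GC content were chosen after seeing the data. The 3 sterol enzymes became 1 with no filter, 1 without the trend, 1 after the length correction and 1 after both corrections. They became 2, without *Fdps*, with a pseudocount of 0.1, under median ratio scaling and under quantile normalization. They became 4, with *Mvk*, at a minimum of 5 FPKM. Of the 11 other settings, *Fdps* was called in 2 and *Idi1* in 5. The 1 call among the regulators became 0 with no filter and 0 after both corrections. The 3 fatty acid enzymes remained at 3 after each of these corrections and were 2 with no filter and 2 without the trend. The 3 other pathway genes became 1 without the trend, 0 after the length correction and 0 after both. The median difference between the arms, 0.22, was 0.24 with a pseudocount of 0.1 (0.239), 0.201 with a minimum of 5 FPKM, 0.243 under quantile normalization, 0.156 after the length correction and 0.15 after both. The cause of these shifts was not tested.

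With the replicate number as a block, 2 genes in all were called, and 0 with the block and the length correction together. Among the sterol, regulator, fatty acid and other pathway genes 0 were called under either block. The 7 called genes had limma adjusted p-values of 0.0802 to 0.114 with the block alone and 0.125 to 0.168 with block and length correction. Their unadjusted limma p-values were at most 0.0164 and 0.0212. The median difference with block and length correction was 0.156. Same-numbered libraries did not correlate, so the numbers mark no known pairing.

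With 1 library left out, between 3 (without mock library 2) and 1215 (without mock library 3) genes were called. The others gave 6 without mock library 1, and 11, 25 and 210.0 without quinpirole libraries 1, 2 and 3. The ranges were 0 to 2 for sterol enzymes, 0 to 1 for regulators, 0 to 2 for fatty acid enzymes and 0 to 4 for the other pathway genes. For the median difference the range was 0.186 to 0.27. *Idi1* and *Scd2* were called in 0 of these 6 fits, with unadjusted p-values of at most 0.00949 and 0.00743 (limma).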
